A study of Arabidopsis thaliana with 6 samples.

Results

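The genes described here are 10 CBF/DREB factors and cold-response targets of Arabidopsis thaliana, chosen by locus from the 33602 genes of the count files. The transcription factors are CBF1 (AT4G25490), CBF2 (AT4G25470), CBF3 (AT4G25480), DREB2A (AT5G05410), DREB2B (AT3G11020), TINY (AT5G25810) and TINY2 (AT5G11590). The cold-response targets are KIN1 (AT5G15960), KIN2 (AT5G15970) and COR78 (AT5G52310). RNA-Seq was done on primary roots of the mutant ipt1,3,5,7, which lacks function of isopentenyltransferase genes and makes little cytokinin, at an age of 7 d. In the BAP group the seedlings were moved on their mesh to medium with 1 µM of the cytokinin 6-benzylaminopurine (BAP) and harvested 4 h later. In the DMSO group they were moved to medium with the solvent dimethyl sulfoxide (DMSO) and harvested 1 h later. Each group had 3 libraries, and both carried the same mutant genotype, with root tips and lateral roots discarded. Treatment and time since transfer therefore cannot be told apart in any value below, no cold treatment of these roots is named in the labels or methods, and no wild-type library was analysed here. In whole root segments, fewer cells of a type and less RNA per cell cannot be told apart either.

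C-repeat binding factors (CBF, also called DREB1) are APETALA2-type transcription factors that cold switches on within minutes to hours and that bind the dehydration-responsive element (DRE) in the promoters of cold-regulated genes. DREB2 proteins bind the same element and act mainly in drought and heat, and TINY and TINY2 belong to a further branch of the same family. KIN1, KIN2 and COR78 (also named RD29A or LTI78) encode hydrophilic proteins and are classic cold and abscisic acid (ABA) induced genes. In Arabidopsis the circadian clock gates the CBF genes, and touch and handling are known to raise them as well.

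The cold-response targets split. KIN1 was 2.52-fold and KIN2 3.01-fold higher in BAP than in DMSO roots, whereas COR78 was 3.30-fold lower (n = 3 each). Among the factors, TINY2 was 8.80-fold higher. None of CBF1, CBF2, CBF3, DREB2A, DREB2B and TINY was called. A gene was called where its adjusted p was at most 0.05 and its log2 fold change at least 0.5 in size, by edgeR's quasi-likelihood test with Benjamini-Hochberg adjustment over 20987 genes. All 10 genes had enough reads for that test, and 3 of the 10 were called higher, against 11.6% of all genes tested, and 1 of the 10 lower, against 11.4%. These shares are the background for each count of called genes below. The BAP and DMSO libraries did not overlap for 5 of the 10 genes, against 51.3% of all genes tested, so that share is near the background. The median log2 fold change of the 10 genes was 0.27, and that of all genes tested was 0.00.

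**Figure D1:**
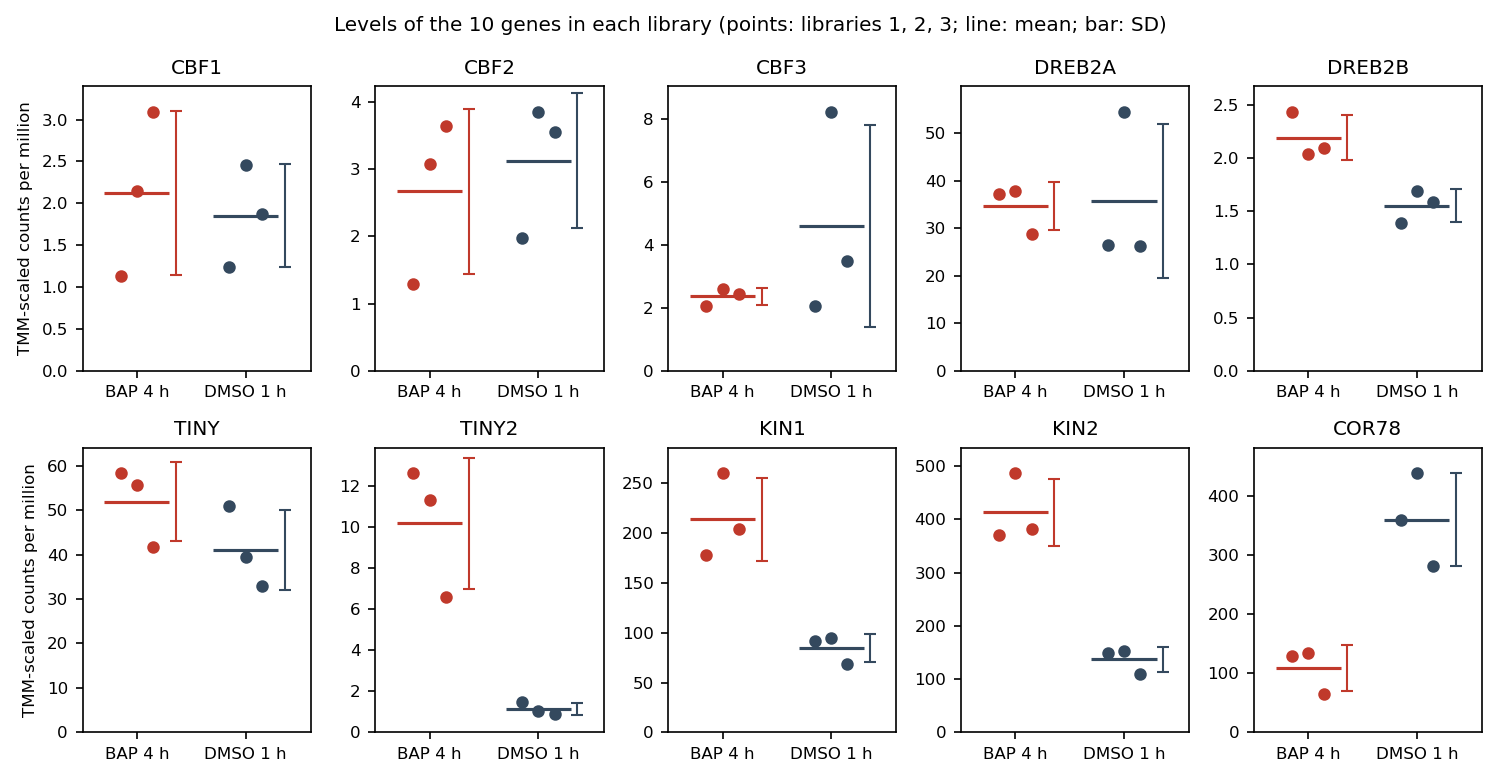
Level of each of the 10 genes in counts per 1e6 counts (CPM, with TMM-scaled totals, vertical axis, from 0) in the 3 BAP 4 h libraries (red, left) and the 3 DMSO 1 h libraries (dark, right), in the order of libraries 1, 2 and 3. Lines are means and bars are SD. TINY2, KIN1 and KIN2 sit higher in every BAP library and COR78 sits lower, while the CBF genes, DREB2A and TINY overlap between the groups.

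Depth was even, with 20085917 to 20127269 counts in BAP libraries and 19957748 to 20026876 in DMSO libraries. By these unscaled totals 1 read was worth 0.0497 to 0.0501 CPM. With the TMM-scaled totals used for CPM values here, 1 read was worth 0.0499 to 0.0522 CPM in BAP and 0.0480 to 0.0495 CPM in DMSO libraries. Of the genes mutated in the line, IPT7 still had 8, 8 and 17 reads in BAP roots against 228, 236 and 218 in DMSO roots, which checks no label, because both groups carry the mutations and no wild type was analysed here. Some lists of marker genes differed between the groups. Of 4 lateral root primordium genes 4 were called lower (summed level 8.73 to 9.30 CPM in BAP, 31.5 to 36.4 CPM in DMSO libraries), and of 5 root tip genes 2 were lower and 3 not called (18.4 to 26.1 against 27.7 to 32.1 CPM). Of 6 genes listed for root ground tissue and stele 3 were lower and 1, COBL9, higher (423 to 465 against 926 to 1131 CPM). PHO1 alone averaged 293 CPM in BAP and 847 CPM in DMSO roots, so the sum of this list mostly shows that 1 gene. Of 6 leaf photosynthesis genes 3 were higher and 1 lower (60.7 to 109 against 73.9 to 91.0 CPM), and the BAP range of their sum, highest in BAP library 3, enclosed the DMSO range. No gene of these 4 lists was without a read. The part of these markers in the results below was not tested.

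The 3 CBF genes lie side by side on chromosome 4, on the minus strand, as single-exon genes (TAIR10: CBF2 at chr4:13015277-13016220, CBF3 at chr4:13018214-13019121 and CBF1 at chr4:13021780-13022725). Their coding sequences are close copies, with 86.3% identity between CBF1 and CBF2, 85.0% between CBF1 and CBF3 and 86.7% between CBF2 and CBF3 in the TAIR10.1 reference. Of the distinct 50-base words in the exons, 2.48% for CBF1, 3.95% for CBF2 and 0.596% for CBF3 also occurred in another annotated gene's exons. These are shares of overlapping words, not of bases, and the share of bases covered is larger. How reads with several matches were counted is not given in the sources used here. All 3 genes were expressed at a low level.

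CBF1 had 22, 41 and 62 reads in BAP libraries 1, 2 and 3, against 25, 51 and 39 in DMSO libraries 1, 2 and 3. The groups overlapped, with a log2 fold change of 0.20 ± 0.37 (SE) and an adjusted p of 0.708 (edgeR). The 95% confidence interval of that change, −0.65 to 1.04, leaves room for a change of more than 1 on the log2 scale upward. CBF2, which in Arabidopsis acts beside CBF1 and CBF3 on the cold regulon, had 25, 59 and 73 reads in BAP roots and 40, 80 and 74 in DMSO roots. Its log2 fold change was −0.23 ± 0.37 (adjusted p = 0.666, edgeR), again with overlapping groups. Library 1 of each group was the lowest of its 3 for both genes.

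CBF3, the CBF gene classically placed under the activator ICE1, had 40, 50 and 49 reads in BAP roots against 42, 171 and 73 in DMSO roots. The BAP libraries were alike, library 1 was again the lowest of each group, and 1 DMSO library, number 2, stood far above the rest with 8.24 CPM against 2.08 and 3.50 CPM in the other DMSO libraries. The log2 fold change was −0.96 ± 0.45 and not called (adjusted p = 0.128, edgeR). Single libraries decided this value: it was −0.25 (adjusted p = 0.518) without DMSO library 2 and −1.32, then called lower (adjusted p = 0.0213), without DMSO library 1.

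The genes on either side of the CBF cluster differed little between the groups. ABCB28, an ABC transporter gene upstream in file order, had 386, 390 and 394 reads in BAP roots and 377, 463 and 414 in DMSO roots. RS40, a splicing factor gene on the other side, had a log2 fold change of 0.35 ± 0.10 (adjusted p = 0.0216, edgeR), below the fold minimum for a call. The 300 bases before the RefSeq start of CBF1 and of CBF3 held no match to the 4 motifs searched, which are spelled out with the targets below. CBF2 had 1 ABA-responsive element (ABRE) core and 1 CGCGT. Further upstream, evening elements (AAAATATCT) began 493 and 396 bases before the start of CBF1 and 394 before that of CBF2. RefSeq starts lie upstream of those in the count files, at 13022996 against 13022725 for CBF1 and 13019400 against 13019121 for CBF3. The bases between were not searched.

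DREB2A (chr5:1602205-1603926, plus strand, TAIR10) encodes the DREB2 factor best known from drought and heat, and had 719, 726 and 578 reads in BAP roots against 537, 1131 and 549 in DMSO roots. DMSO library 2 was again the high one, and the other DMSO libraries lay below all 3 BAP libraries. The log2 fold change was −0.05 ± 0.27 (adjusted p = 0.904, edgeR). Without DMSO library 2 it was 0.37 with an adjusted p of 0.0497, still below the fold minimum. DREB2B (chr3:3455355-3457214, plus strand, TAIR10) had 47, 39 and 42 reads in BAP roots and 28, 35 and 33 in DMSO roots. Every BAP library was above every DMSO library, yet the log2 fold change of 0.49 ± 0.18 was not called (adjusted p = 0.0646, edgeR, 95% confidence interval 0.07 to 0.91). The neighbours AT5G05400 (log2 fold change −0.19), RLP34 (−0.14) and TBL32 (−0.01) were not called, and AT5G05420 had too few reads to test. In the TAIR10.1 models the ends of DREB2A and DREB2B overlap AT5G05420 and TBL32, whereas in the models of the count files they do not.

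TINY (chr5:8986771-8987787, minus strand, TAIR10) and TINY2 (chr5:3727534-3728726, minus strand, TAIR10) are 66.0% identical in coding sequence and share no identical stretch of 50 bases. TINY, named for the dwarf plants that its overexpression gives, had 1126, 1065 and 838 reads in BAP roots against 1027, 817 and 687 in DMSO roots. The groups overlapped, with a log2 fold change of 0.34 ± 0.17 (adjusted p = 0.154, edgeR). Without DMSO library 1, the highest of its group, the change was 0.51 and called higher (adjusted p = 0.0318).

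TINY2 was expressed far below TINY in DMSO roots and moved most of the 10 genes. It had 244, 217 and 132 reads in BAP roots, against 30, 22 and 19 in DMSO roots, or 10.2 ± 3.18 CPM against 1.15 ± 0.298 CPM (SD, n = 3 each). All 3 BAP libraries were above all DMSO libraries, and BAP library 3 was the lowest of its group. The log2 fold change was 3.14 ± 0.30 (adjusted p = 8.32e-05, edgeR). As a ratio of reads, TINY exceeded TINY2 by 4.61, 4.91 and 6.35 times in BAP libraries and by 34.2, 37.1 and 36.2 times in DMSO libraries. Next to TINY2, AT5G11580 was also called higher (1002, 1022 and 962 reads in BAP roots against 610, 571 and 586 in DMSO roots, log2 fold change 0.84 ± 0.07, adjusted p = 5.32e-05, edgeR). On the other side AT5G11600 had a log2 fold change of −0.38, under the fold minimum. The neighbours of TINY, AT5G25800 (−0.04) and AT5G25820 (−0.37), were not called. Neither TINY nor TINY2 had a match to the 4 motifs in the 1000 bases before its RefSeq start.

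KIN1 (chr5:5209898-5210727) and KIN2 (chr5:5211911-5212665, both plus strand, TAIR10) are adjacent genes with 2 introns each. Their coding sequences have the same length of 201 bases, of which 191 are identical. The 2 genes shared 0.147% and 0.166% of their distinct 50-base exon words, a share of words and not of bases. Only exact matches count in these shares, so stretches with a few differences are left out. How many reads were placed on the wrong gene of the pair was not tested. KIN1 had 3438, 4971 and 4082 reads in BAP roots, against 1846, 1960 and 1425 in DMSO roots. Every BAP library was far above every DMSO library, with a log2 fold change of 1.33 ± 0.16 (adjusted p = 3.33e-04, edgeR). KIN2 had 7177, 9309 and 7649 reads in BAP roots, against 2998, 3172 and 2291 in DMSO roots. It too rose without overlap, by 1.59 ± 0.15 on the log2 scale (adjusted p = 8.26e-05, edgeR). The ratio of KIN2 to KIN1 reads was 2.09, 1.87 and 1.87 in BAP libraries, against 1.62, 1.62 and 1.61 in DMSO libraries, so that the ratio was higher in every BAP library than in any DMSO library. AT5G15980, the gene after KIN2, was not called (1405, 1227 and 1422 reads in BAP roots against 1386, 1397 and 1400 in DMSO roots, log2 fold change 0.03 ± 0.07, adjusted p = 0.734, edgeR), and AT5G15948, the gene before KIN1, had no reads.

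COR78 (chr5:21240849-21243613, plus strand, TAIR10), the standard reporter gene for DRE-driven transcription, went the other way. It had 2490, 2576 and 1289 reads in BAP roots, against 7278, 9111 and 5872 in DMSO roots. All BAP libraries were below all DMSO libraries, and BAP library 3 was the lowest, with 64.3 CPM against 129 and 135 CPM in the other BAP libraries. The log2 fold change was −1.72 ± 0.27 (adjusted p = 0.00138, edgeR). RD29B, its tandem neighbour and a gene driven mainly by ABA, fell as well, with 73, 93 and 50 reads in BAP roots against 280, 583 and 284 in DMSO roots (log2 fold change −2.32 ± 0.34, adjusted p = 9.26e-04, edgeR). The gene on the other side of COR78, CYP96A4, had 6 to 14 reads in BAP and 6 to 16 in DMSO libraries and was not called.

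Within each library the opposite directions of the targets were plain. KIN1 had 1.38, 1.93 and 3.17 times the reads of COR78 in BAP libraries, against 0.254, 0.215 and 0.243 times in DMSO libraries. For KIN2 the ratios to COR78 were 2.88, 3.61 and 5.93 in BAP libraries and 0.412, 0.348 and 0.390 in DMSO libraries. The BAP and DMSO ratios did not overlap for either pair, nor for KIN2 to KIN1 or TINY to TINY2. With 3 libraries against 3 the two-sided exact permutation test cannot go below p = 0.1, which each of these 4 ratios reached (adjusted p = 0.125 over 5 ratios). The ratio of COR78 to RD29B reads was 34.1, 27.7 and 25.8 in BAP libraries and 26.0, 15.6 and 20.7 in DMSO libraries, overlapping slightly (exact permutation p = 0.2).

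**Figure D2:**
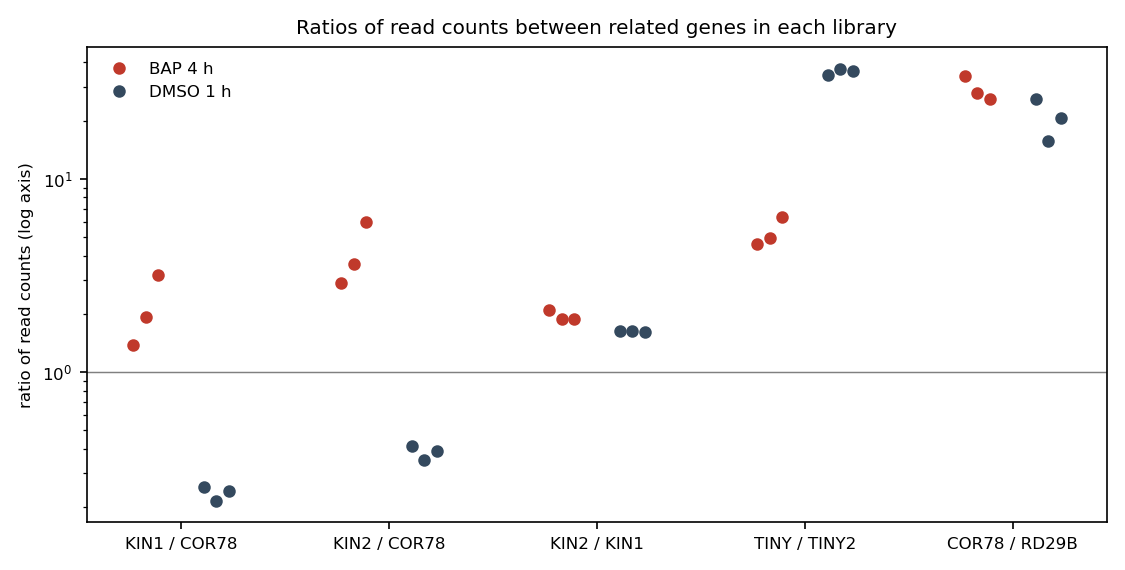
Ratio of read counts between 2 related genes in each library (vertical log axis, no unit), with the 3 BAP 4 h libraries in red on the left and the 3 DMSO 1 h libraries dark on the right of each pair. KIN1 / COR78 is above 1 in every BAP library and 0.215 to 0.254 in the DMSO libraries, and TINY / TINY2 is 4.61 to 6.35 in BAP and 34.2 to 37.1 in DMSO libraries.

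Per length of transcript, the order of the targets differed between the groups. In BAP roots KIN2 stood at 551 ± 84.9 CPM per 1000 exon bases, KIN1 at 258 ± 50.5 and COR78 at 41.0 ± 14.7, with no overlap between them (SD, n = 3). In DMSO roots the means were 183 ± 31.5 for KIN2, 135 ± 29.5 for COR78 and 102 ± 17.2 for KIN1, and neighbours in that order overlapped (147 to 204, 106 to 165 and 82.4 to 114 CPM per 1000 bases). TINY followed in both groups, at 38.2 ± 6.52 in BAP and 30.2 ± 6.67 CPM per 1000 bases in DMSO roots, and in BAP roots it overlapped COR78. DREB2A came next, at 21.0 ± 3.06 in BAP and 21.7 ± 9.80 in DMSO roots. TINY2, at 7.99 CPM per 1000 bases (5.17 to 9.91), was the sixth in BAP roots, and in DMSO roots, at 0.904 ± 0.234, it was the lowest of the 10 and overlapped DREB2B (0.993 ± 0.0977) and CBF1 (1.52 ± 0.501). The CBF genes lay between 1.71 and 2.71 in BAP and between 1.52 and 3.31 CPM per 1000 bases in DMSO roots as group means, overlapping one another. These levels use exon lengths of the TAIR10.1 models, which span more bases than the models of the count files for all 10 genes.

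Sequences before the RefSeq starts of the targets are shown because COR78 and the KIN genes moved in opposite directions. Whether these sequences bear on the directions was not tested. Each line holds the 300 bases before the RefSeq gene start in TAIR10.1, 5′ to 3′ on the gene's strand, with matches to the DRE core (ACCGAC or GCCGAC) and to the ABRE core (ACGTGGC or ACGTGTC), on either strand, in capitals.
COR78, chr5:21240417-21240716, plus strand: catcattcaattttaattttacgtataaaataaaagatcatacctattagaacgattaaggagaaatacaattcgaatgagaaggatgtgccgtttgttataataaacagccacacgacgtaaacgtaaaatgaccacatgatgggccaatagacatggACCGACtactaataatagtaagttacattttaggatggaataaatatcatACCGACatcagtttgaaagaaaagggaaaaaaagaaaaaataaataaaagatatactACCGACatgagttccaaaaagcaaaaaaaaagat
KIN1, chr5:5209417-5209716, plus strand: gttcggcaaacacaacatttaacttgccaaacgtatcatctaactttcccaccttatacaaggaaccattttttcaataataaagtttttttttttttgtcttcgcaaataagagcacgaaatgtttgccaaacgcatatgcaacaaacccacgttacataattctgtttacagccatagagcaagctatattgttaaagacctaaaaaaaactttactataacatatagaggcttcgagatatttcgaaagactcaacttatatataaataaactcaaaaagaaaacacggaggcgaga
KIN2, chr5:5211419-5211718, plus strand: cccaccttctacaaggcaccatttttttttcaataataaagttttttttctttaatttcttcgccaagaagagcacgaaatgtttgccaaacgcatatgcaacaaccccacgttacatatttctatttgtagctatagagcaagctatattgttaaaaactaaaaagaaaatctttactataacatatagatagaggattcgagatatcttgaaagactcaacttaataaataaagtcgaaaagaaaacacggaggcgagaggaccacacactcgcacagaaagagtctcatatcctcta

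COR78 held 3 DRE cores, the first bases of which lie 141, 91 and 34 bases before the start. At least 1 DRE core occurred in 8.28% of the 26711 windows of this length in the genome, and 2 or more in 0.651%. KIN1 and KIN2 had neither core in this window, nor in the 1000 bases before the RefSeq start. Their windows resembled each other: 229 of 250 aligned pairs of bases were identical, and 86.7% of the alignment with gaps. In 1000 bases each KIN gene had 1 evening element (AAAATATCT, searched on both strands), a sequence known from promoters of clock-controlled genes, beginning 606 bases before the start of KIN1 and 656 before that of KIN2. CBF1, CBF2 and DREB2A, none of them called, also held the element within 1000 bases, as did RAB18, a gene called lower (below). In DREB2A 1 match lay within 300 bases of the start. The evening element occurred in 7.30% of windows of 1000 bases and in 2.83% of those of 300 bases. The ABRE core, present once each before CBF2, DREB2A and DREB2B, occurred in 7.10% of the shorter windows. CGCGT, the core of sites bound by CAMTA calcium sensors, occurred in 7.93%, and because ACGCGT holds it on both strands some of its matches overlap. RefSeq places the starts of the KIN genes and of COR78 further upstream than the models in the count files do. They are 5209717 against 5209898 for KIN1, 5211719 against 5211911 for KIN2 and 21240717 against 21240849 for COR78. The windows end at the RefSeq start, so the bases between both starts were not searched, also for CBF1, CBF2, CBF3 and TINY. These matches are descriptions of letters in a window, and no match says nothing of whether a factor binds there.

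**Figure D3:**
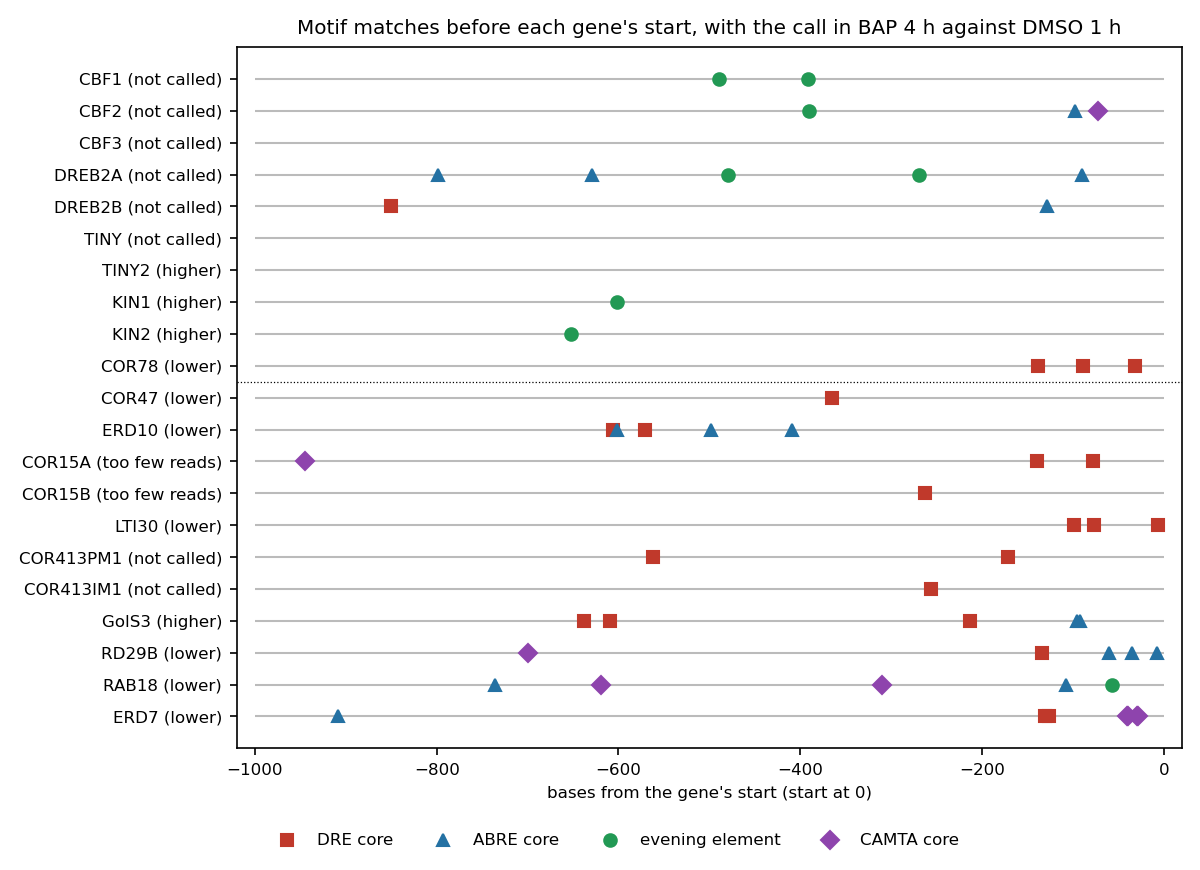
Matches to the DRE core (red squares), the ABRE core (blue triangles), the evening element (green circles) and the CAMTA core CGCGT (purple diamonds) in the 1000 bases before the start of each of the 10 genes (above the dotted line) and of 11 other cold-response targets (horizontal axis, bases from the gene's start, both strands). Labels give the call in BAP 4 h against DMSO 1 h. In the bases searched, which end at the RefSeq start, COR78 has 3 DRE cores close to its start, and KIN1 and KIN2 have none.

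Other cold-response targets were mostly lower. Of 11 listed, 9 were tested, 6 were called lower and 1 higher, and their median log2 change was −1.04 against 0.00 over all genes tested. RD29B (given above), RAB18 and ERD10 had the largest decreases. RAB18, an ABA-responsive dehydrin gene, had 4, 10 and 4 reads in BAP roots against 21, 44 and 26 in DMSO roots (log2 fold change −2.23 ± 0.45, adjusted p = 0.00474, edgeR). ERD10, also a dehydrin gene, averaged 543 ± 93.4 CPM in BAP and 1791 ± 339 CPM in DMSO roots (SD, n = 3 each), a log2 fold change of −1.72 ± 0.18 (adjusted p = 1.23e-04, edgeR). The other lower genes were COR47 (−1.36), LTI30 (−1.04) and ERD7 (−0.54), the last of which lost its call without BAP library 3 (log2 fold change −0.44), DMSO library 1 (−0.48) or DMSO library 2 (−0.49). GolS3, the galactinol synthase gene of the cold response, rose instead, with 189, 170 and 116 reads in BAP roots against 43, 53 and 36 in DMSO roots (1.93 ± 0.23, adjusted p = 3.36e-04, edgeR). COR413PM1 (log2 fold change 0.02) and COR413IM1 (0.81) were not called. COR15A and COR15B, main targets of CBF proteins in leaves, had at most 12 reads in a library and were not tested. DRE cores stood within 300 bases of both the higher GolS3 (1) and the lower LTI30 (3), so a DRE core before a gene was found with either direction.

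**Figure D4:**
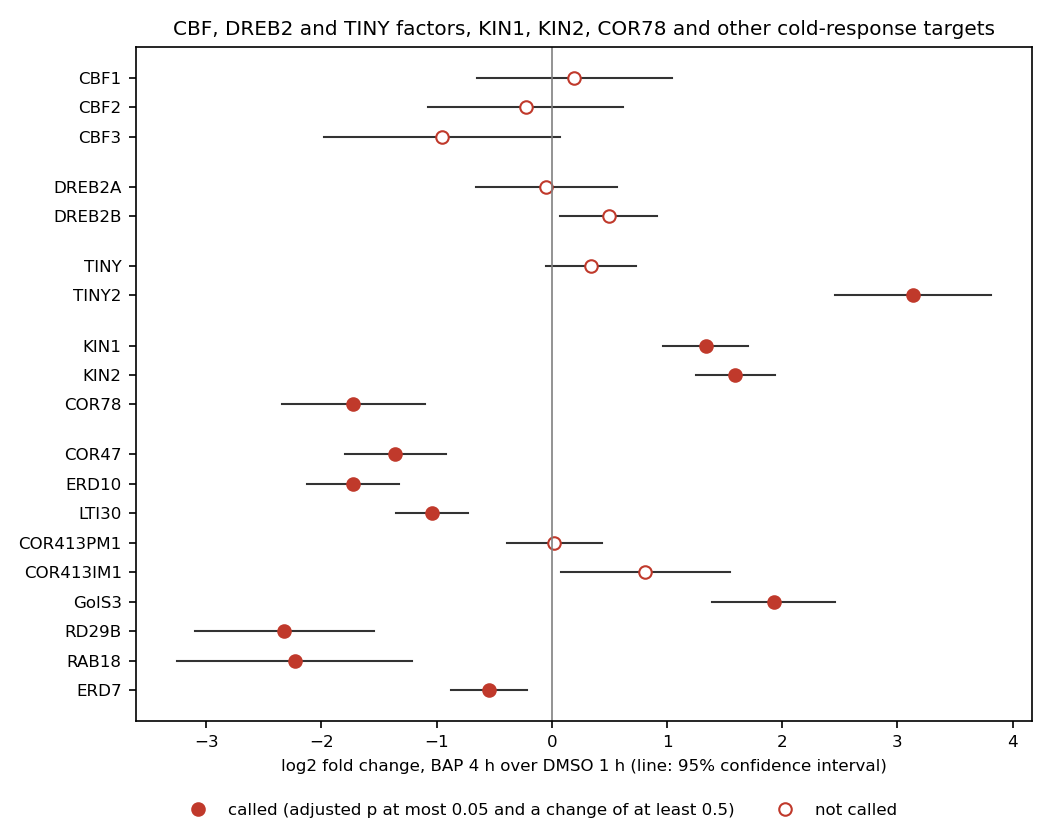
Log2 fold change of BAP 4 h over DMSO 1 h (horizontal axis, points) with its 95% confidence interval (lines) for the 10 genes in 4 blocks and for the 9 other cold-response targets tested. Filled points were called. KIN1, KIN2 and GolS3 lie to the right of 0, and COR78 lies to the left at −1.72 with 6 other targets.

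Among 15 known regulators of the CBF genes, 14 were tested, 3 were called lower and 1 higher (median log2 fold change −0.13). Over all genes tested 11.4% were lower and 11.6% higher, and with so few genes a difference from these shares was not tested. ICE1, the bHLH activator of CBF3, had 256, 254 and 237 reads in BAP roots against 469, 904 and 534 in DMSO roots (−1.27 ± 0.22, adjusted p = 0.00252, edgeR). DMSO library 2 was the highest for ICE1, as it was for CBF3. SCRM2 (ICE2), its close homolog, went up instead, with 112, 87 and 117 reads in BAP roots against 56, 79 and 72 in DMSO roots (0.69 ± 0.17, adjusted p = 0.0128). Without DMSO library 3 PIF3 was called lower too (−0.50, adjusted p = 0.0499). OST1, the kinase that stabilises ICE1, was lower (−0.78 ± 0.12, adjusted p = 0.00148, edgeR). SOC1, a repressor of the CBF genes, was called lower (−0.96, adjusted p = 0.0401) but kept the call in 1 only of 6 fits with a library left out (without DMSO library 1), with an adjusted p of 0.0744 to 0.116 in the others.

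For DREB2A, the E3 ligase genes DRIP1 (log2 fold change 0.15) and DRIP2 (−0.10), whose products mark it for degradation, were not called, and GRF7 had too few reads to test. HSFA3, a heat shock factor gene activated by DREB2A and DREB2C, rose, with 60, 84 and 60 reads in BAP roots against 28, 36 and 34 in DMSO roots (1.14 ± 0.21, adjusted p = 0.0033, edgeR). Of 9 further CBF and DREB2 genes 2 were tested, and both were higher. DREB2C had 307, 274 and 233 reads in BAP roots against 30, 27 and 40 in DMSO roots, a log2 fold change of 3.15 ± 0.18 (adjusted p = 6.52e-06), about the size of that of TINY2. DREB2H had 38, 33 and 31 reads in BAP roots against 6, 8 and 7 in DMSO roots (2.34 ± 0.26, adjusted p = 1.84e-04, edgeR). The 2 genes are neighbours on chromosome 2 and share 1.18% and 3.94% of their distinct 50-base exon words, a share of words and not of bases. CBF4, the drought-responsive member of the CBF group, was left out by the filter on low counts, with 1, 2 and 4 reads in BAP and 6, 23 and 10 in DMSO roots.

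Of 14 other genes of the TINY branch, 9 were tested, 2 called higher and 1 lower (median log2 fold change 0.26). Over all genes tested 11.6% were called higher and 11.4% lower, and with so few calls a difference from these shares was not tested. Without BAP library 1 AT3G16280 was called higher as well (0.78, adjusted p = 0.0465), as was AT5G52020 without BAP library 3 (0.59) or DMSO library 1 (0.51). AT2G44940 was the most abundant of those called, with 1633, 1545 and 1544 reads in BAP roots against 625, 863 and 663 in DMSO roots (1.21 ± 0.11, adjusted p = 7.69e-05, edgeR). AT2G25820 was called higher at a low level (25, 23 and 19 reads in BAP against 13, 11 and 10 in DMSO roots, log2 fold change 1.05), and lost the call with DESeq2 and without BAP library 1 (adjusted p = 0.0767 and 0.0525). AT4G16750 was called lower (97, 90 and 90 reads in BAP against 127, 329 and 193 in DMSO roots, log2 fold change −1.14), with the highest level again in DMSO library 2, and lost the call without BAP library 2 or 3 (adjusted p = 0.0561 and 0.0571).

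Clock genes moved with the groups. Of 4 morning genes 3 were lower: LHY by −3.24 ± 0.30, CCA1 by −1.87 ± 0.24 and PRR9 by −0.90 ± 0.17 on the log2 scale (adjusted p = 7.0e-05, 4.96e-04 and 0.00328, edgeR). The remaining one, PRR7, was called higher without BAP library 3 (0.51) or DMSO library 2 (0.50). LHY, which in Arabidopsis activates the CBF genes together with CCA1, had 112, 184 and 196 reads in BAP roots against 1069, 2312 and 1541 in DMSO roots. All 5 evening genes tested were higher, with PRR5 (2.75 ± 0.18), ELF4 (2.43 ± 0.21) and LUX (1.00 ± 0.17) foremost (adjusted p = 1.27e-05, 4.57e-05 and 0.00205, edgeR). The share of the clock in the levels of the 10 genes was not tested. The time of day of transfer and harvest is not given in the sources used here.

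Of 7 touch and wounding genes 1 was called, TCH3, which was lower (221, 440 and 634 reads in BAP roots against 2391, 2158 and 2872 in DMSO roots, log2 fold change −2.44 ± 0.30, adjusted p = 3.33e-04, edgeR). Without BAP library 1 a further 4 of these genes were called higher, TCH2 (0.56), TCH4 (1.18), ZAT10 (0.85) and CML38 (1.46 on the log2 scale, adjusted p = 0.0242), and without DMSO library 3 a further 3, TCH4 (1.23), ZAT10 (0.91) and CML38 (1.75). BAP library 1 was at least 1.5-fold below both other BAP libraries for 6 of the 7 touch and wounding genes, for CBF1 and CBF2 and for MYB15, CCA1 and LHY, against 2.68% of the 19805 genes that averaged 1 CPM or more. WRKY40 had 2.48 CPM in BAP library 1, against 8.46 and 11.6 CPM in the other BAP libraries, and CBF2 had 1.29 against 3.08 and 3.64 CPM. All 3 CBF genes were lowest in DMSO library 1 by over 1.5-fold, as were 1.67% of genes. The CBF genes had only 25, 40 and 42 reads there. These shares use unscaled totals and cover genes of all levels from 1 CPM up, so they are no match for genes with few reads. DMSO library 2 was at least 1.5-fold above both other DMSO libraries for CBF3, DREB2A, RD29B, RAB18, ICE1, ERF4, CCA1 and LHY, against 1.25% of genes. RAB18, at 0.310 CPM in BAP and 1.47 CPM in DMSO roots, averaged under 1 CPM and is not among the genes of that share. DMSO library 3 was so for MYB15, TCH4, ZAT10, WRKY40 and CML38, against 1.03% of genes. These genes and libraries were picked after their values were seen, and the part of handling in the levels was not tested.

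**Figure D5:**
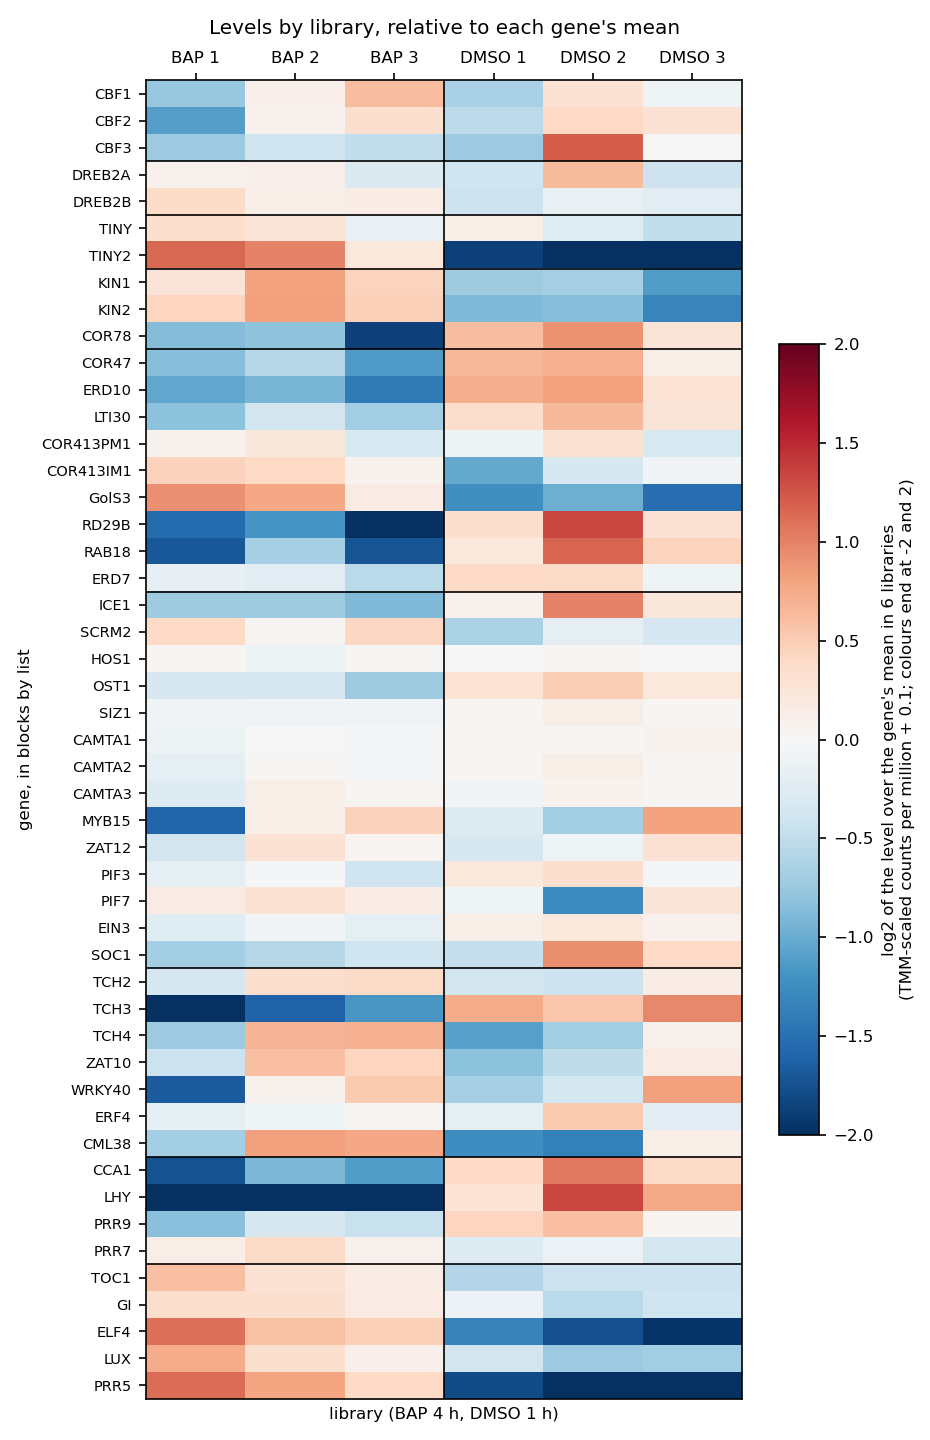
Level of the 10 genes (top 4 blocks), other cold-response targets, regulators of the CBF genes, touch and wounding genes, morning and evening clock genes (rows) in each library (columns, BAP 4 h left of DMSO 1 h), as log2 of the level over the gene's own mean in 6 libraries. CBF1, CBF2 and CBF3 are lowest in library 1 of each group, and the touch and wounding genes are lowest, among BAP libraries, in library 1. CBF3, DREB2A, RD29B and ICE1 are highest in DMSO library 2, and TINY2, KIN1, KIN2 and COR78 follow the groups.

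Profiles most like those of the called genes were sought over the 6 libraries by Pearson's r of log2 CPM, as a description, since the libraries fall into 2 groups and any gene with a like change scores high. COR78 was most like AT2G34360 (r = 0.999), AT2G39518 (0.997) and ASIL1 (0.996), all with lower levels in BAP library 3 than in BAP libraries 1 and 2. TINY2 was most like LZF1, a B-box gene of light signalling (r = 0.999), AT1G70860 (0.999) and AT4G12270 (0.999). KIN1 was closest to OBP3, a DOF-type factor gene (r = 0.998), TBL24 (0.998) and CWINV5 (0.997), and KIN2 to WLIM2a (0.998), AT4G02425 (0.997) and AT3G23510 (0.996). KIN1 and KIN2 peaked in BAP library 2, with 260 and 486 CPM, whereas TINY2 was highest in BAP library 1, with 12.6 CPM.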

How the data were processed

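The deposited files, 1 for each library, held raw counts by gene without normalization. Per the methods and the submitters' processing notes, the authors checked reads with FastQC, mapped them with Bowtie2, counted them with HTSeq on TAIR10 and tested them with DESeq2. Versions, the strand setting and how multiply matching reads were handled are not given in the sources used here. File starts, counted from 0, are printed counted from 1. No unassigned line was present.

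Groups came from the labels, and every library was used. The methods call the 3 libraries of a group biological replicates, and the labels do not say how they were separated. The filterByExpr function of edgeR 4.0.16 in R 4.3.3 (minimum count 10, minimum total 15) left 20987 genes and removed 12615. Counts were scaled by TMM and tested with the quasi-likelihood F test on treatment alone. SE is the size of the log2 fold change over the square root of F. CPM values use TMM-scaled totals, and a count of 0 allows up to 3 counts (0.149 to 0.150 CPM of the library total, counting error only). Alternatives were DESeq2 1.42.0, other scalings and filters, a replicate block, other fold minimums and each library left out. The fit was also run on simulated counts, and no statement here rests on that run.

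Sequences, exon lengths and motif matches (Biopython 1.88) came from the TAIR10.1 reference of RefSeq, which holds 32835 of the 33602 identifiers. Coordinates of the builds were kept apart. Promoter and protein tables were not used here.

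The genes, lists and motifs were chosen with earlier results of these data known. Named beside the 10 genes are their direct neighbours, per list up to 3 called genes a direction by size of change, and the 3 genes most like each called one. Others were named after their values were seen, to complete a count or show a library.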

Additional observations from a re-analysis of the deposited data

How the results depend on the processing

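Across DESeq2 (test or size factors), upper-quartile scaling, both other filters, the replicate block and both other fold minimums, 3 of the 10 genes were called higher and 1 lower. TINY2, KIN1, KIN2 and COR78 kept their direction and call in every fit. With a library left out, 3 to 4 genes were called higher and 1 to 2 lower, the upper values without DMSO library 1, which added TINY (0.51) and CBF3 (−1.32). Of the genes not called, the log2 fold change of CBF1 ranged from −0.18 to 0.50, that of CBF2 from −0.52 to 0.10 and that of DREB2A from −0.25 to 0.37 over these fits, each with both signs, and the cause was not tested. Over all genes tested the other scalings moved the median by at most 0.02 on the log2 scale.

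Libraries with the same replicate number correlated, as deviations from their group means, at r = 0.21, 0.06 and 0.32, and those with unlike numbers at −0.31 to 0.09. BAP library 2 correlated slightly better with DMSO library 1 (0.09) than with its own number. The numbers were not taken as pairs in the main fit, and these values do not settle whether they are pairs. With the replicate block DREB2A stood at 0.019, TINY at 0.35 with an adjusted p of 0.00918 (edgeR), below the fold minimum, and TCH4 (0.81), ZAT10 (0.59), CML38 (1.12) and AT3G16280 (0.63) were called higher. Calls numbered 2474 higher and 2455 lower over all genes with the block, against 2425 and 2384 without it. The SE was smaller with the block for each of the 10 genes except DREB2B (0.20 against 0.18). It was 0.24 against 0.37 for CBF1, 0.18 against 0.37 for CBF2 and 0.12 against 0.27 for COR78. No call of the 10 genes changed with the block.

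With 22 to 80 reads per library, the 95% confidence intervals of CBF1 and CBF2 were −0.65 to 1.04 and −1.07 to 0.62 in the fit without the block. Changes within these intervals were not excluded by that fit. Treatment and time since transfer cannot be told apart, and no 4 h DMSO or 1 h BAP library was analysed here.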
